A study of Mus musculus with 3 samples.

Results

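The 1261 strongest gene-end summits of the acetylation mark H3K9ac that 3 libraries of mouse haematopoietic stem cells (HSCs) had in common are described here. A summit is the single base at which the authors' peak caller placed the top of a peak, listed with a score that orders the peaks of that library. The members were chosen by measured values. They are summits of the young HSC list on chromosomes 1 to 19 and X that lay at most 1 kb from the start or end coordinate of a protein-coding gene, ranked 3000 or better by score, and lay within 500 bp of a summit ranked 3000 or better in both other lists. They made up 13.4% of the 9434 young HSC summits at gene ends, and the 3 lists held 187421 summits in all. Ranks, scores and sharing are therefore descriptions of the members, and nothing is supported with them.

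The libraries came from sorted bone marrow HSCs of wild-type mice by CUT&Tag, in which a transposase tethered to an antibody against the mark cuts and tags the DNA near it. There was 1 library for each of the 3 groups: old HSC ABC (animals of 18 to 24 months), old HSC (18 to 24 months) and young HSC (2 to 4 months), with 50000 cells per assay. The labels do not spell out ABC, and the strain, sex and number of animals, the sorting gate and the read depth are not stated in the labels. A single library per group leaves the spread between animals unmeasured, and no test was made. The 95% intervals are exact Clopper-Pearson binomial intervals and cover counting error only. Names embedded in the peak identifiers went against the labels: the list labelled old HSC ABC carried oHSC-H3K9ac-2, the list labelled old HSC carried oHSC-ABC-H3K9ac-1, and the list labelled young HSC carried oHSC-H3K9ac-1. Groups are called by their labels throughout. No list could be left out, since the members need all of them. Of the 10 HSC marker genes checked, 4 had a gene-end summit in the old HSC ABC list, 8 in the old HSC list and 6 in the young HSC list. Over all genes the shares were 44.1%, 57.6% and 42.4%, from lists of 45386, 108787 and 33248 summits. Ly6a, Procr and Cd34 were among those with one in every list, and Mecom had none.

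Acetylation of lysine 9 of histone H3 is laid down by acetyltransferases of the SAGA and ATAC complexes and removed by histone deacetylases. It marks nucleosomes beside the start sites of genes that are being transcribed, and is also found at active enhancers. Promoters of genes used in nearly every cell type usually lie in CpG islands and lack a TATA box, and ETS family factors, NRF1 and YY1 are among the proteins that bind them. In HSCs such genes sit beside a smaller set of lineage and stem cell genes, whose control relies more on distant enhancers.

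Promoter windows of 7 member genes show the range of sequence at the starts beside these summits. Each runs from 250 bases before to 50 bases after the RefSeq gene start, on the gene's own strand, in GRCm38.p6 (mm10) coordinates. Of the 7, only Srek1ip1 had its summits inside the window, at 38, 37 and 40 bp after the start in the old HSC ABC, old HSC and young HSC lists. Capitals mark exact matches, on either strand, to CCGGAAG (ETS), AAGATGGC (YY1), GCGCATGC (NRF1) or TATAAA, the letters of the TATA box. Ppp4r3b, a regulatory subunit gene of protein phosphatase 4, is shown as the member gene that came nearest the front of all 3 lists at a gene start, and Psma2, a proteasome subunit gene, as a window rich in NRF1 matches. Srek1ip1 is a head-to-head gene pair partner, Ndufa4 encodes a respiratory chain protein, and Zfp738 comes from a zinc finger gene cluster. Tal1, a transcription factor gene of HSCs, and S100a8, a granulocyte and monocyte gene, are shown as blood cell genes among the members.
Ppp4r3b (chr11:29172726-29173025, plus strand): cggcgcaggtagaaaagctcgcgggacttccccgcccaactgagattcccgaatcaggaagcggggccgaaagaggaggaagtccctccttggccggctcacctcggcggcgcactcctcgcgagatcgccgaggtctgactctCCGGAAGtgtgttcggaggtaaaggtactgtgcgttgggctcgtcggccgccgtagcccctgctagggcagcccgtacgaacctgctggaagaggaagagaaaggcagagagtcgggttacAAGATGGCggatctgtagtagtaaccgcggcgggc
Psma2 (chr13:14612992-14613291, plus strand): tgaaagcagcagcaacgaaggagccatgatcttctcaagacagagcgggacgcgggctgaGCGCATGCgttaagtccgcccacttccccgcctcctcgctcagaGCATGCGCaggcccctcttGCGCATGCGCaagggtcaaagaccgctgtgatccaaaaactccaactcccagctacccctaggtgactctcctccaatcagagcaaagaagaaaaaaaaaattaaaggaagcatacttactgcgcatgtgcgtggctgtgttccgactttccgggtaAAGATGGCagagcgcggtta
Srek1ip1 (chr13:104816920-104817219, plus strand): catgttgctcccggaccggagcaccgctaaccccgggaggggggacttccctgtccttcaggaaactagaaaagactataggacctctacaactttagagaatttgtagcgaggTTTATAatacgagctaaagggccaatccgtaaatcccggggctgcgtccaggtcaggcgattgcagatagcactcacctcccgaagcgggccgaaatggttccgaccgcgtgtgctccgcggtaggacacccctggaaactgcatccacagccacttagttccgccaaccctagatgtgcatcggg
Ndufa4 (chr6:11907401-11907700, minus strand): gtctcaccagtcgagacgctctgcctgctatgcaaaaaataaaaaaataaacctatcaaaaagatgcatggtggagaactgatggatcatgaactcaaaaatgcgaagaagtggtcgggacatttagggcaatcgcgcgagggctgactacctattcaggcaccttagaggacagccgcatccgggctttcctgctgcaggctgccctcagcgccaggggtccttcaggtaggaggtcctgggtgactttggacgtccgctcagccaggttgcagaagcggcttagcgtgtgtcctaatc
Zfp738 (chr13:67683463-67683762, minus strand): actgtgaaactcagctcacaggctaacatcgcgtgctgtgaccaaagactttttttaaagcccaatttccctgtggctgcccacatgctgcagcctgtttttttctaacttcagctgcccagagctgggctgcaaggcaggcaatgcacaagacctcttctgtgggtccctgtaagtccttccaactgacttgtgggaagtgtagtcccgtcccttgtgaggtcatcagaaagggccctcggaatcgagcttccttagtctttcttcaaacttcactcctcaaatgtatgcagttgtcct
Tal1 (chr4:115057561-115057860, plus strand): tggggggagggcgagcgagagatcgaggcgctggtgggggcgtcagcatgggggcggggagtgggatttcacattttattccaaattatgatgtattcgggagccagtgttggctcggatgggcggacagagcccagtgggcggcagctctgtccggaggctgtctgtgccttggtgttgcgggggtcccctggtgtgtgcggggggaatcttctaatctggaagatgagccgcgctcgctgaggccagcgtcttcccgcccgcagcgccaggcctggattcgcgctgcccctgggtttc
S100a8 (chr3:90668821-90669120, plus strand): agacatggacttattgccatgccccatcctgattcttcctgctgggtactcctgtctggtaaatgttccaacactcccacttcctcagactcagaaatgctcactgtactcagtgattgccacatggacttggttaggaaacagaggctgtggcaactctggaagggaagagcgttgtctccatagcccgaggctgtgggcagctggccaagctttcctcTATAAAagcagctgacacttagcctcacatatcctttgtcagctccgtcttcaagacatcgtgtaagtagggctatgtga
The windows of Ppp4r3b, Psma2, Srek1ip1 and Tal1 had CpG observed-over-expected ratios of 1.02, 0.851, 0.842 and 0.758. This ratio sets the CpG dinucleotides of a window against the number its C and G content alone would give, and most of the mammalian genome is far below 1. Ndufa4 had a ratio of 0.668, and Zfp738 and S100a8 had ratios of 0.271 and 0.214. The Ppp4r3b window held an ETS and a YY1 match, the Psma2 window held NRF1 and YY1 matches, and the S100a8 window held a TATA box in the gene's own orientation. The Srek1ip1 window held the TATA letters on the opposite strand. None of the 12 motifs searched was found in the Ndufa4 window. A match says only that these letters are present.

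The path from all summits to the members ran through position, score and sharing. Of 33208 young HSC summits on the chromosomes used, 2989 ranked in the top 3000, and 2128 of these lay at gene ends (71.2%, 95% interval 69.5 to 72.8), against 28.4% of all young HSC summits. Of the 2128, 1434 had a top-ranked old HSC ABC summit within 500 bp (67.4%), 1584 had a top-ranked old HSC one (74.4%), and 1261 had both (59.3%, 57.1 to 61.4). Of the 861 strong young HSC summits away from gene ends, 455 had both (52.8%, 49.4 to 56.2). The rule used these scores and this sharing, so the shares are descriptions. The remaining 867 strong gene-end summits and the 7306 weaker ones serve below as the other gene-end summits.

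By score the members ran from the front of each list to the limit. Their ranks ran from 24 to 2995 in the old HSC ABC list, with a median of 1091, from 13 to 2992 in the old HSC list, with a median of 1004, and from 27 to 2985 in the young HSC list, with a median of 1052. The median scores, read as −log10 q-values, were 20.97 in the old HSC ABC list, 56.3 in the old HSC list and 23.3 in the young HSC list. These scores follow the depth of each library, which is unknown, and are not compared between lists. Only 14 members ranked 100 or better in all 3 lists, 146 ranked 500 or better (11.6%) and 346 ranked 1000 or better (27.4%). For 511 members (40.5%) at least 1 of the 3 ranks was beyond 2000.

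The 20 members with the best worst rank over the lists were at genes of varied functions. Wherever 3 ranks are given, they are for the old HSC ABC, old HSC and young HSC lists in this order. Ppp4r3b ranked 35, 35 and 34 in the old HSC ABC, old HSC and young HSC lists, with scores of 83.8, 176 and 89.4. Its summit fell on the same base in all 3, position 29173507 of chromosome 11, which is 531 bases into the gene. Eif2s2, the beta subunit gene of the initiation factor eIF2, ranked 69, 43 and 71, and Rpl4, a large-subunit ribosomal protein gene that shares its summit with the kinetochore gene Zwilch, ranked 74, 66 and 46. The splicing factor gene Rbm5 ranked 59, 50 and 49, and the tRNA methyltransferase gene Alkbh8 ranked 57, 46 and 65. Ipo7, which encodes a nuclear import receptor, ranked 82, 52 and 62, and Tm9sf3, a membrane protein gene, ranked 95, 84 and 76. Bet1, a SNARE gene of transport between endoplasmic reticulum and Golgi, ranked 72, 117 and 109, and Poldip3 ranked 76, 120 and 70. Zinc finger genes had 5 of the 20: Zfp830, at a summit shared with Cct6b, ranked 47, 63 and 60, Zfp763 ranked 78, 112 and 85, and Zfp738, Zfp87 and Zfp729a are given with their cluster below. The complement regulator gene Cr1l ranked 97, 73 and 82, and the RNA polymerase II associated gene Polr2m ranked 101, 64 and 95. The pairs at Srek1ip1, Gak and Fto and the summit at Wls complete the 20.

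The member with the best worst rank, at Wls, was of another kind. It ranked 24, 25 and 27 in the old HSC ABC, old HSC and young HSC lists, and lay on chromosome 3 at position 159939480. That is 814 bp past the end of the record of Wls, the carrier gene for Wnt secretion, and 99830 bp from its start. The 3 summit positions there were within 2 bp of each other. Regions prone to artefact signal were not removed, so the position is given and no promoter is assigned to it.

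The rank limit ran through a continuous range of values. Just inside lay Mybbp1a with ranks of 1167, 1845 and 2985 in the old HSC ABC, old HSC and young HSC lists, H2-Q6 with 2989, 196 and 2078, Atf7 with 2990, 2806 and 1561, Ccdc86 with 1550, 2992 and 1903, and Rae1 with 2995, 942 and 1883. Just outside lay Fermt3 with 3001, 2243 and 652, Ckap5 with 757, 1040 and 3002, Med28 with 1446, 1742 and 3002, the pair Gabpa and Atp5j with 2417, 1986 and 3008, and Rnf141 with 3008, 2210 and 2466. All 10 fell within 20 ranks of the limit in 1 list, and some were near the front of another.

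The 3 libraries placed most member summits close to each other. The median distance from a member to the nearest top-ranked summit was 25 bp in the old HSC ABC list and 22 bp in the old HSC list. The old HSC ABC summit was on the same base for 210 members (16.7%, 14.6 to 18.8) and the old HSC summit for 247 (19.6%, 17.4 to 21.9). All 3 lists named the same base for 75 members (5.95%, 4.71 to 7.40), and for 317 both other summits lay within 5 bp (25.1%, 22.8 to 27.6). At the other end, 128 members had a distance beyond 250 bp in at least 1 list (10.2%). The rule itself held these distances to 500 bp. For the other gene-end summits the distance was taken to the nearest summit of any rank, under the same 500 bp limit. The values are therefore not like for like with those of the members. Other strong gene-end summits lay a median of 48 bp from an old HSC ABC summit and 38 bp from an old HSC summit. They shared the base in 11.97% and 14.1% of cases. Weaker gene-end summits lay a median of 87 bp from an old HSC ABC summit and 81 bp from an old HSC summit, and shared the base in 7.23% and 8.39% of cases. Psma1 is an example of a wide distance: its young HSC summit and those of the other 2 lists were 381 bp apart.

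Nearly all members had the start of a gene within 1 kb. A member was counted at the start end wherever a gene start was that close, also where a far end was nearer, as at S100a8. The share therefore does not show that far ends were avoided. Strand was known for the genes of 1035 members, and 1025 of these were at the start end (99.0%, 98.2 to 99.5). The share was 98.7% for the other strong gene-end summits and 91.7% for the weaker ones (91.0 to 92.4), so members and other strong summits did not differ beyond counting error, and both stood above the weaker ones. For 226 members no strand was at hand, since their genes had no listed start. The 10 members at a far end alone were those of Wls, Gm32584, Lars2, H2aj, Gpx1, Ptpn18, S100a9, Mrpl36, Dpm3 and Mast3. Gpx1, the gene of a glutathione peroxidase that reduces peroxides, had its summit 217 bp past the end of its record, on the same base of chromosome 9 in every list (108340559) and ranks of 1827, 661 and 821 in the old HSC ABC, old HSC and young HSC lists. Lars2, the mitochondrial leucyl-tRNA synthetase gene, had its summit 683 bp inside its end, with ranks of 938, 261 and 356. Of the 10, 2 also had a listed start within 1 kb.

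Members sat downstream of the start, inside the first part of the gene. For 1020 members a listed start lay within 1 kb, and 837 of the young HSC summits were on its downstream side (82.1%, 79.6 to 84.4), against 80.5% of the other strong and 69.9% of the weaker gene-end summits (68.7 to 71.2). The median distance was 210.5 bp into the gene in the old HSC ABC list, 212 bp in the old HSC list and 218 bp in the young HSC list. The same shape appeared in each list: the bin from 0 to 100 bp held 19.02%, 18.0% and 19.4% of the members in the old HSC ABC, old HSC and young HSC lists, the bin from 100 to 200 bp held 8.82%, 12.5% and 9.90%, and the bin from 200 to 300 bp held 15.4%, 16.6% and 14.02%. Between the 2 crowded bins there was thus a thinner one in all 3 lists. The rule held the other summits within 500 bp of the young HSC summit, and most lay far closer. The shared shape is therefore not independent support from each list. The other young HSC gene-end summits had 12.4%, 8.50% and 10.3% in these bins. Few members lay upstream by more than 300 bp.

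**Figure D1:**
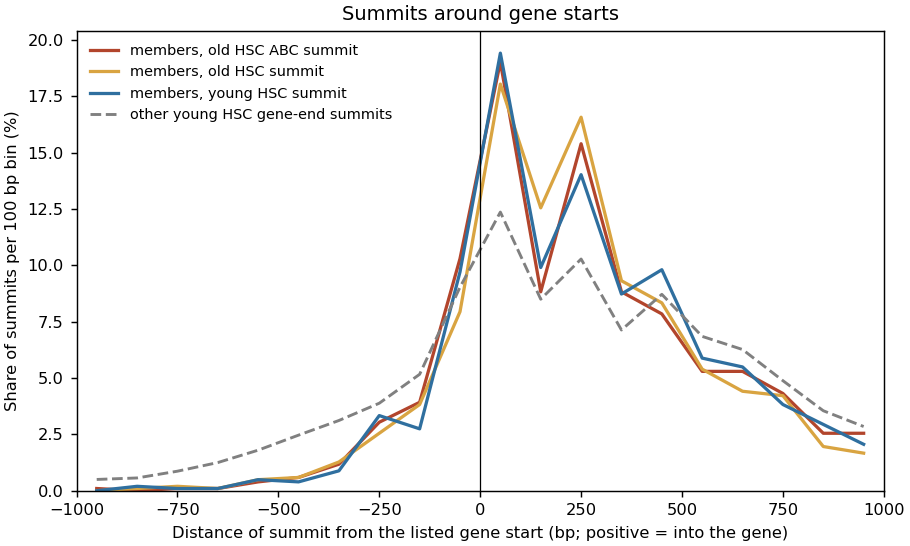
Share of summits per bin of 100 bp (vertical axis, %) by distance from the listed gene start (horizontal axis, bp, positive into the gene), for members in the old HSC ABC, old HSC and young HSC lists and for the other young HSC gene-end summits. Members crowd the bins at 0 to 100 bp (19.02%, 18.0% and 19.4%) and 200 to 300 bp (15.4%, 16.6% and 14.02%), with fewer in the bin between them.

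Members were seldom part of a row of several summits. A summit list can name more than 1 summit along a wide domain, and within 2 kb of a member 18.3% of cases had 2 or more old HSC ABC summits (16.2 to 20.6), 13.6% had 2 or more old HSC summits (11.7 to 15.6) and 14.3% had 2 or more young HSC summits, the member included (12.4 to 16.3). For the weaker gene-end summits the shares were 27.8% in the old HSC ABC, 27.5% in the old HSC and 35.6% in the young HSC list, and for the other strong ones 29.3%, 20.4% and 23.6%. The members thus stood below both sets in every list by more than counting error. The sets were parted by score and by sharing within 500 bp, and both can depend on how many summits lie nearby. The contrast is therefore a description and is not shown to be a trait of the members. The rule fixed that each member has at least 1 old HSC ABC and 1 old HSC summit nearby, which the other sets need not have.

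Some members served more than 1 gene. There were 1473 member genes, or 6.81% of the 21631 protein-coding genes on these chromosomes, and 1467 of them had 1 member while 6 had 2. Of the members 1047 had 1 gene end within 1 kb, 210 had 2 and 4 had 3. At 106 members a pair of genes ran head to head, away from each other on opposite strands (8.41%, 6.93 to 10.1). This share was 8.30% for the other strong gene-end summits and 5.38% for the weaker ones (4.87 to 5.92). The pair Srek1ip1 and Cwc27, both named for roles in splicing, ranked 55, 39 and 88 in the old HSC ABC, old HSC and young HSC lists, with the young HSC summit 40 bp into Srek1ip1. Gak, a kinase gene of clathrin uncoating, and Tmem175, a lysosomal potassium channel gene, ranked 94, 97 and 98. Fto, an RNA demethylase gene, and Rpgrip1l, a gene of the ciliary base, ranked 118, 80 and 105. Cpsf2, of the mRNA cleavage complex, and Ndufb1, of respiratory complex I, ranked 155, 167 and 158. The 4 members with 3 genes were at Rad17, Ak6 and Taf9 and at Shld3, Trappc13 and Trim23, both on chromosome 13, at Setdb2, Cab39l and Gm45935 on chromosome 14, and at Hyal3, Hyal1 and Naa80 on chromosome 9. A summit shared by several genes cannot be assigned to 1 of them.

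Genes for making and folding proteins and for respiration were frequent among the member genes. Of the nuclear genes of the respiratory chain, 22 of 58 had a member at an end (37.9%, 25.5 to 51.6), against 6.81% of all genes. Of the genes of proteasome subunits and ubiquitin handling 14 of 39 did (35.9%, 21.2 to 52.8), of the cytosolic ribosomal protein genes 22 of 79 (27.8%, 18.3 to 39.1), of the chaperone genes 8 of 31 (25.8%, 11.9 to 44.6) and of the translation factor genes 9 of 43 (20.9%, 10.04 to 36.0). Each of these intervals lay above the share of all genes. A young HSC end summit of any score was at 89.7%, 89.7%, 83.5%, 90.3% and 93.0% of these lists, in the same order, against 42.4% of all genes. Among genes with such a summit, the member genes were 22 of 52, 14 of 35, 22 of 66, 8 of 28 and 9 of 40. Over all genes with such a summit there were 16.1 member genes per 100. No interval was computed on this base. When only members with 1 gene end within 1 kb were counted, an alternative chosen after seeing the data, 13 of 58 respiratory chain genes had one (22.4%, 12.5 to 35.3), against 4.83% of all genes. The lists were chosen with earlier results of these data known, so the shares describe the members and are no independent evidence.

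The respiratory chain genes came from every complex. Sdhc and Sdhd, membrane subunits of complex II, ranked 481, 551 and 399 and 708, 265 and 1745 in the old HSC ABC, old HSC and young HSC lists. Of complex I, Ndufb8 ranked 289, 107 and 265 and Ndufa8 ranked 717, 527 and 386. Ndufa4, a protein first counted with complex I and later with cytochrome c oxidase, ranked 455, 180 and 279. Its summits in the 3 lists were 71, 70 and 70 bp into the gene whose promoter is printed above. Of complex III, Uqcrc2 ranked 198, 429 and 516, and Uqcrb ranked 80, 58 and 297. The cytochrome oxidase gene Cox7c ranked 650, 227 and 354 and the ATP synthase gene Atp5a1 ranked 238, 375 and 1001. Most other genes of the list had an end summit of lower rank: 52, 53 and 52 of the 58 had one of any score in the old HSC ABC, old HSC and young HSC lists. These were 89.7%, 91.4% and 89.7% of the list, against 44.1%, 57.6% and 42.4% of all genes.

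Proteasome members included Psmb2, a core particle gene, with ranks of 203, 72 and 140 in the old HSC ABC, old HSC and young HSC lists. Psma2, which shares its member with the mitochondrial ribosomal protein gene Mrpl32, ranked 64, 109 and 390, and Psma1 ranked 674, 90 and 343. The ATPase gene Psmc4 of the regulatory particle ranked 1198, 646 and 1099, and Psmd12, another gene of that particle, ranked 1224, 729 and 429. Of the ribosomal protein genes, Rps27a, which encodes a fusion with ubiquitin, ranked 93, 221 and 232, Rpl11 ranked 237, 113 and 235, and Rpl8 ranked 263, 837 and 99. Ribosomal protein genes have many near-identical pseudogene copies, so the placement of reads there is uncertain. Translation factor members beside Eif2s2 were Eif2s3x with 126, 146 and 120, the X-linked gamma subunit gene of eIF2, and Eif3m with 75, 238 and 115. The chaperone genes Tcp1, a ring subunit, and Hspa5, the main chaperone of the endoplasmic reticulum, ranked 359, 247 and 510 and 1949, 547 and 778.

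Genes of lysosomes and autophagy were members in 7 of 28 cases (25%, 10.7 to 44.9), against 6.81% of all genes. Of the 28, 27 had a young HSC end summit of any score (96.4%), against 42.4% of all genes. The cathepsin protease genes Ctsb, Ctsl and Ctsd ranked 557, 234 and 488, 313, 318 and 608, and 2405, 312 and 267 in the old HSC ABC, old HSC and young HSC lists. Rb1cc1 and Becn1, which act early in autophagosome formation, ranked 327, 591 and 317 and 941, 732 and 690. Splicing genes were members in 4 of 51 cases (7.84%, 2.18 to 18.9) and cell cycle genes in 4 of 44 (9.09%), both near the share of all genes. Ddx17 led the splicing list with 673, 741 and 196, and Cdk1 led the cell cycle list with 724, 574 and 302.

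**Figure D2:**
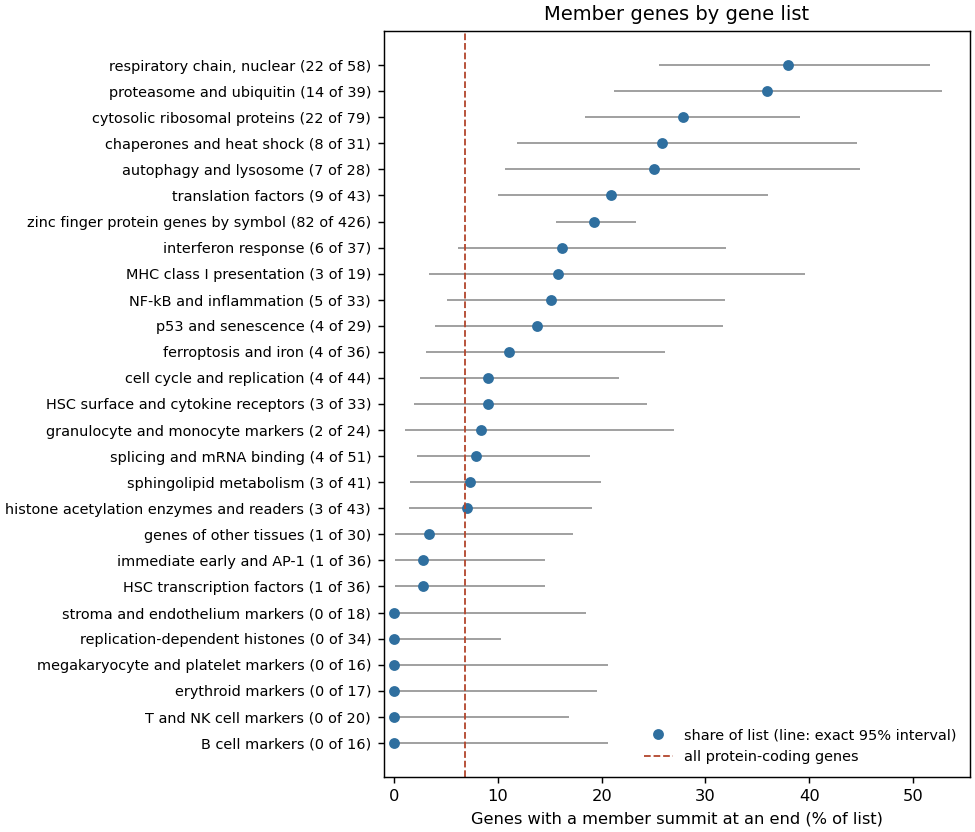
Share of the genes of each list that had a member at an end (horizontal axis, %), with exact 95% intervals that cover counting error only, beside the share of all protein-coding genes. The lists of respiratory chain (37.9%) and proteasome genes (35.9%) stand highest, and HSC transcription factor genes are at 2.78%, with an interval that includes the 6.81% of all genes.

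Of 36 genes of HSC transcription factors 1 was a member, Tal1, a founding factor of blood formation (2.78%, 0.0703 to 14.5). The interval includes the 6.81% of all genes, so the list is not told apart from them. Tal1 ranked 421 in the old HSC ABC list, 2055 in the old HSC list and 2603 in the young HSC list, and its summits were at -529, -529 and -414 bp relative to the listed start, upstream of it. Runx1 ranked 4212, 1466 and 3680, Cebpa 3937, 39366 and 2596, Gata2 17748, 14054 and 12315, and Meis1 11352, 5670 and 20256. Fli1, Erg, Mecom, Prdm16, Zfx and Ldb1 had no end summit in any list. Only the outer coordinates of each gene record were searched, so a summit at a start inside the record would not be counted. In all, 20, 28 and 18 of the 36 had an end summit of any score in the old HSC ABC, old HSC and young HSC lists. These shares of 55.6%, 77.8% and 50% lay above the 44.1%, 57.6% and 42.4% of all genes, with no interval computed. The median best rank of those with one was 14232, 17936 and 9055.5, against 7212.5, 8368 and 6186.5 over all genes with an end summit. The median of the HSC transcription factor genes thus lay further back in every list, with Tal1 and Runx1 ahead of the median of all genes in each. These ranks are values the rule used.

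Genes of HSC surface molecules and cytokine receptors were members in 3 of 33 cases (9.09%, 1.92 to 24.3). The interval includes the 6.81% of all genes, so this list is not told apart from them either. Ifnar2, a chain of the type I interferon receptor, ranked 769, 475 and 184 in the old HSC ABC, old HSC and young HSC lists. Cd27, a receptor of the tumour necrosis factor family found on progenitors and lymphocytes, ranked 1032, 550 and 796. Csf2rb, the shared beta chain of the receptors for IL-3, IL-5 and GM-CSF, ranked 1150, 1776 and 2056, and its near-identical neighbour Csf2rb2 makes the placement of reads uncertain. Kit, the stem cell factor receptor gene, had no end summit in the old HSC ABC list and ranked 8611 in the old HSC list and 24585 in the young HSC list.

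The series is titled after sphingosine metabolism and ferroptosis, an iron-dependent form of cell death. Sphingolipid genes were members in 3 of 41 cases (7.32%, 1.54 to 19.9) and genes of ferroptosis and iron in 4 of 36 (11.1%, 3.11 to 26.1). Both intervals include the share of all genes. Sgpl1, the lyase that ends sphingosine 1-phosphate breakdown, ranked 2750, 1459 and 1070 in the old HSC ABC, old HSC and young HSC lists. Sptlc2, a subunit of the first enzyme of sphingolipid synthesis, ranked 890, 2966 and 1622, and Ugcg, which adds glucose to ceramide, ranked 2462, 2701 and 2884. Of the iron and ferroptosis genes, Aco1, an iron-sensing regulator of mRNAs, ranked 558, 338 and 1536. Slc3a2, the heavy chain partner of the cystine transporter, ranked 1044, 357 and 1938. Ncoa4, the receptor for ferritin breakdown, ranked 1535, 909 and 2557, and Sat1, of polyamine breakdown, ranked 2490, 1851 and 1999. In each of the 3 sphingolipid genes at least 1 list placed the summit beyond rank 2000, in the last stretch before the limit.

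Immune and stress genes gave members in several lists, but each interval in this paragraph includes the 6.81% of all genes. Interferon response genes were members in 6 of 37 cases (16.2%, 6.19 to 32.0), with Ifi35 at 143, 336 and 108 in the old HSC ABC, old HSC and young HSC lists and the signalling gene Stat3 at 1487, 1840 and 1508. Genes of MHC class I presentation were members in 3 of 19 cases (15.8%, 3.38 to 39.6): B2m, the invariant light chain, at 471, 168 and 373, the peptide trimming gene Erap1 at 562, 902 and 568, and H2-Q6, one of a family of near-identical genes, at 2989, 196 and 2078. NF-kB and inflammation genes gave 5 of 33 (15.2%, 5.11 to 31.9), among them Chuk, a kinase that releases NF-kB, at 899, 979 and 1034, and Tlr4, the receptor of bacterial lipopolysaccharide, at 2220, 2335 and 1215. Genes of p53 and senescence gave 4 of 29 (13.8%, 3.89 to 31.7), with Hmgb2 at 584, 345 and 766 and the kinase gene Atm of the DNA damage response at 2115, 959 and 1762. Of the 36 immediate early genes Jun alone was a member (2.78%, 0.0703 to 14.5), at 1291, 828 and 2540. Enzymes and readers of histone acetylation gave 3 of 43 (6.98%, 1.46 to 19.1): Hdac2 at 279, 815 and 637, Tada3, a subunit shared by the SAGA and ATAC complexes, at 1007, 839 and 357, and Hat1 at 1579, 564 and 2940.

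Several lists of markers of other cells held no member gene. None of 17 erythroid, 16 megakaryocyte, 16 B cell, 20 T and NK cell and 18 stroma and endothelium genes was a member. Taking 3 genes of a list as the limit that a count of 0 allows, the shares could be up to 17.6%, 18.8%, 18.8%, 15% and 16.7% in these lists, which all lie above the share of all genes. None of the 34 genes listed as replication-dependent histone genes was a member either, where the same limit is 8.82%. Histone genes outside that list were members, such as H2az2 and H2aj. Of 30 genes of other tissues Mbp alone was a member (3.33%), with ranks of 1939, 2568 and 1689 in the old HSC ABC, old HSC and young HSC lists.

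S100a8 and S100a9, which encode the calprotectin subunits of granulocytes and monocytes, were the 2 member genes of 24 on that list (8.33%, 1.03 to 27), a share near the 6.81% of all genes. S100a8 ranked 807 in the old HSC ABC list (score 23.2), 13 in the old HSC list (508) and 44 in the young HSC list (65.0). S100a9 ranked 2253 in the old HSC ABC list (15.9), 17 in the old HSC list (414) and 41 in the young HSC list (70.3). Both were near the front in the old HSC and young HSC lists and further back in the old HSC ABC list. The S100a8 summits lay 853, 856 and 863 bp after its start, close to the far end of this gene of 964 bp on chromosome 3. Those of S100a9 lay at the far end of its record. Of the 8 defining granulocyte and monocyte markers, 5 had an end summit in the old HSC ABC list, 8 in the old HSC list and 5 in the young HSC list, where 44.1%, 57.6% and 42.4% of all genes had one. Elane and Retnlg had one in the old HSC list alone, the longest of the 3 lists. The part of such cells in these summits was not tested.

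Zinc finger genes formed a further group, counted after their values were seen. By symbol (Zfp, Zkscan, Zscan), 82 of 426 were member genes (19.2%, 15.6 to 23.3), against 6.56% of the 21205 other genes. A young HSC end summit of any score was at 67.6% of the 426, against 42.4% of all genes. Many encode DNA-binding repressors of the KRAB family, known in mouse for silencing transposons. Their median ranks were 820.5, 632 and 979.5 in the old HSC ABC, old HSC and young HSC lists. On chromosome 13, 15 of these members lay between positions 67060875 and 67813790, from Zfp712 to Zfp273. In this row Zfp738 ranked 77, 65 and 72, Zfp87 ranked 81, 48 and 86 and Zfp729a ranked 120, 115 and 113, all near the front of every list. Others of the row were further back, such as Zfp874a with 2485, 612 and 2213. Of the 85 promoter windows of zinc finger members, 44.7% had a CpG ratio of 0.6 or more, against 78.0% of all member windows. Zinc finger genes of a cluster are near-identical in parts, so the placement of reads between neighbours is uncertain.

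Chromosome 13 had the highest share of member genes, 11.3% (9.26 to 13.7), and X the lowest. Without the zinc finger genes the share was 9.41% on chromosome 13, no longer the highest, with chromosome 18 at 9.42%. On X 19 of 966 genes were member genes (1.97%, 1.19 to 3.05). Fewer X-linked genes had an end summit at all, 24.3% in the young HSC list, and per 100 genes with one there were 8.09 member genes on X, 25.8 on chromosome 13 and 16.1 over all chromosomes. Chromosomes 16, 18 and 12 followed chromosome 13 with 9.43%, 9.39% and 8.69%, and chromosome 7 had the lowest share of the autosomes with 4.98%.

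**Figure D3:**
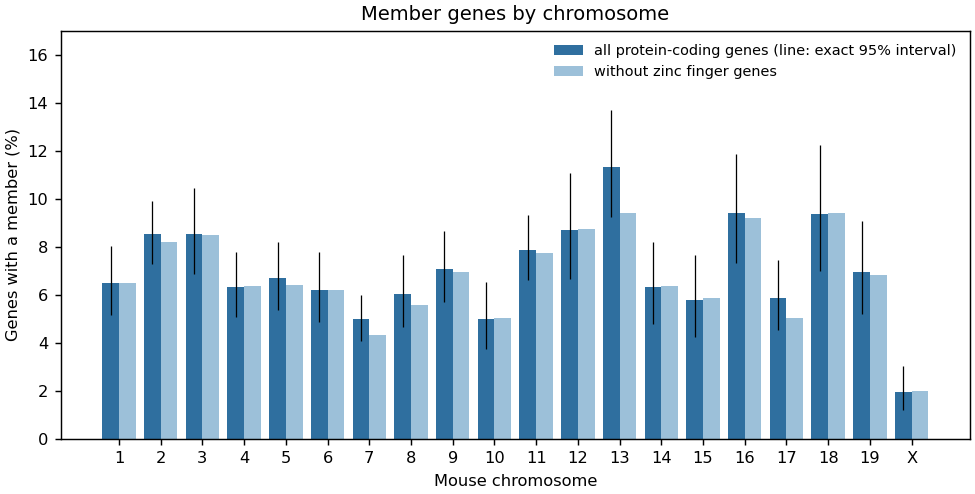
Share of the protein-coding genes of each mouse chromosome that had a member at an end (vertical axis, %), with exact 95% intervals that cover counting error only. Chromosome 13 stands at 11.3% and X at 1.97%, against 6.81% over all.

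By median length, member genes lay above all genes and nearer to other genes with a young HSC end summit. The median was 23811 bp for member genes and 21172 bp for other genes with a young HSC end summit. It was 11100 bp for genes with no end summit in any list and 17329 bp for all genes.

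The promoter windows of member genes were CpG-rich, as were those of other marked genes. Windows were available for 21045 starts of 17274 genes, with none used here for chromosome 18, and 1338 of these starts (of 1181 genes) had a member within 1 kb. Their median GC content was 59.0% and their median CpG ratio 0.784, against 61.3% and 0.782 for starts near another young HSC summit and 49.0% and 0.247 for starts with no summit in any list. A CpG ratio of 0.6 or more was found in 78.0% of member windows (75.6 to 80.1), 74.7% of windows near another young HSC summit (73.7 to 75.6), 18.8% of those with no summit and 48.1% of all. Member windows thus differed widely from unmarked ones and by a small step from other marked ones.

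Among the 12 motifs searched on both strands, the ETS and YY1 letters were more frequent at members than at other marked starts, and the GC box less so. CCGGAAG (ETS) was in 24.96% of member windows (22.7 to 27.4), 20.2% of windows near another young HSC summit (19.3 to 21.1), 3.05% of windows with no summit and 11.7% of all windows. AAGATGGC (YY1) was in 7.10% (5.78 to 8.61), 4.85% (4.39 to 5.35), 1.31% and 3.07%. GGGCGG (GC box) was in 59.6% (56.9 to 62.2), 66.5% (65.4 to 67.5), 23.8% and 46.7%. Within windows of a CpG ratio of 0.6 or more the same order held between members and other marked starts, with 27.9% and 23.9% for ETS, 8.53% and 5.89% for YY1 and 67.4% and 75.3% for the GC box. Windows of 1 gene can overlap, so the intervals are narrower than the number of genes would give.

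The shares of the other motifs at members lay nearer to those at other marked starts than to those at unmarked starts when all windows were counted. The TATA box letters TATAAA were in 6.28% of member windows, 5.96% of windows near another young HSC summit, 20.9% of windows with no summit and 12.7% of all. AGATAA, the letters bound by GATA factors, was in 5.83%, 5.69%, 14.7% and 9.68%. TGANTCA (AP-1) was in 3.59%, 4.41%, 10.2% and 7.04%, TGTGGT (RUNX) in 11.7%, 12.3%, 17.3% and 14.7%, and TTTCNNTTT (interferon response) in 8.74%, 7.52%, 12.4% and 9.63%. GCGCATGC (NRF1) was in 7.03%, 5.94%, 1.203% and 3.54%, TGACGTCA (CREB) in 4.04%, 3.39%, 1.05% and 2.26%, and CACGTG (E box) in 8.89%, 10.5%, 5.07% and 7.91%. CCAAT was at 37.7%, 37.7%, 39.9% and 38.5%, nearly the same in all 4 sets. Several contrasts with unmarked starts were smaller or turned round within windows of a CpG ratio of 0.6 or more: member windows and windows with no summit stood at 10.1% and 6.08% for RUNX, 7.67% and 6.76% for the interferon response letters, 9.78% and 10.9% for the E box, 4.99% and 5.58% for GATA, and 67.4% and 69.8% for the GC box. A match to the NRF1 letters can overlap another on the opposite strand, as in the Psma2 window, and a window was counted once.

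**Figure D4:**
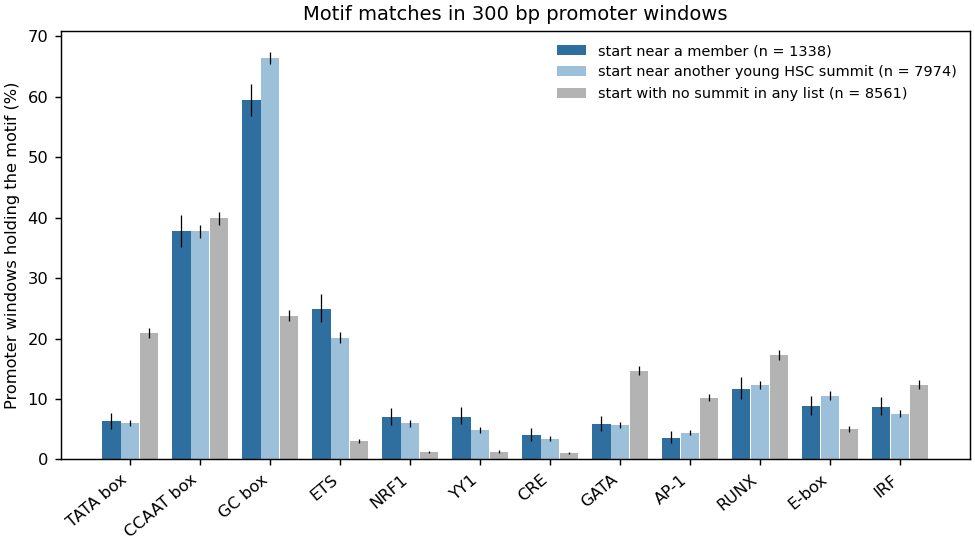
Share of promoter windows of 300 bp that held each motif on either strand (vertical axis, %), for starts near a member, near another young HSC summit and with no summit. The ETS letters are in 24.96%, 20.2% and 3.05% of them, and the TATA letters in 6.28%, 5.96% and 20.9%. The shares over all starts, 11.7% and 12.7%, are not drawn.

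The order of the members within each list was compared by their places among the members, since each list ranks the same 1261. A member was counted as nearer the front in a list where its place number was at least 2 times smaller. Between old HSC ABC and old HSC, 173 members were nearer the front in old HSC ABC (13.7%; 8.49% of 17458 summits shared by all lists) and 180 in old HSC (14.3%; 8.37%). Between old HSC and young HSC, 174 were nearer in old HSC (13.8%; 7.07%) and 179 in young HSC (14.2%; 6.56%). Between old HSC ABC and young HSC, 194 were nearer in old HSC ABC (15.4%; 9.72%) and 187 in young HSC (14.8%; 9.65%). The directions were about equal in each pair, as places over a fixed set tend to be. The rule used these scores, so nothing is read from the shares. Spearman's rho over the members was 0.56 between old HSC ABC and old HSC, 0.59 between old HSC and young HSC and 0.57 between old HSC ABC and young HSC. Over all 17458 shared summits, whose range of ranks the rule did not narrow, rho was 0.77, 0.80 and 0.72 for the same pairs. These are descriptions over summits that share their libraries.

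**Figure D5:**
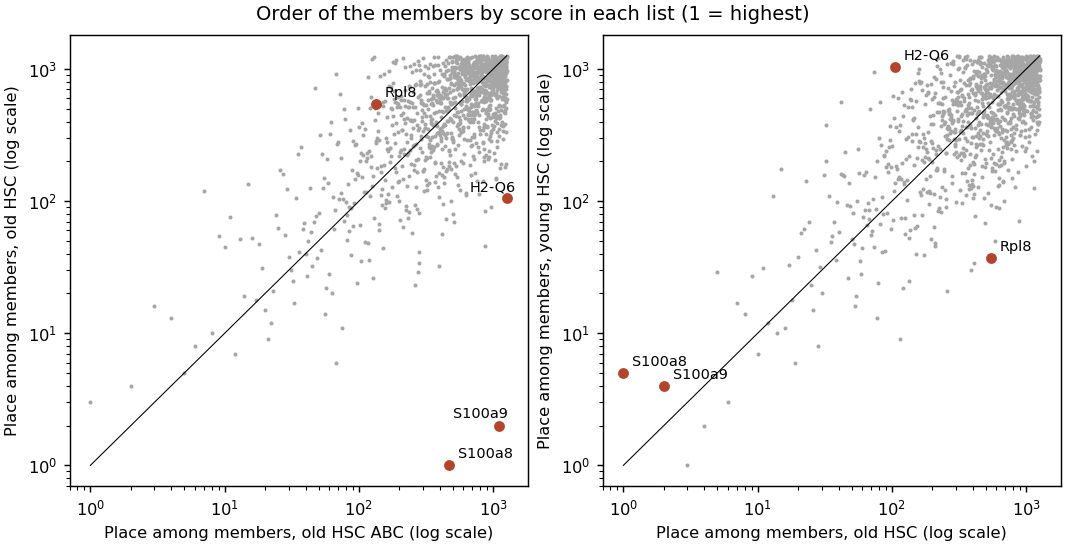
Places of the 1261 members by score (1 is the highest, and both axes are log scales), 1 point per member. The pairs drawn are old HSC ABC against old HSC, and old HSC against young HSC. Points scatter around the diagonal with Spearman's rho of 0.56 and 0.59 (0.77 and 0.80 over all shared summits). S100a8 and S100a9 lie far from the diagonal for old HSC ABC against old HSC.

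The members with the widest differences of place came from varied functions. S100a9 was at place 1099 in the old HSC ABC list, 2 in the old HSC list and 4 in the young HSC list, and S100a8 at 470, 1 and 5. These 2 genes had the widest ratios of place between old HSC ABC and each other library. H2-Q6 was at place 1259 in old HSC ABC, 105 in old HSC and 1043 in young HSC. The pair Cpsf7 and Sdhaf2, an mRNA cleavage factor gene and an assembly factor gene of complex II, was at place 7 in old HSC ABC and 120 in old HSC. Gpn1, a GTPase gene of RNA polymerase II assembly, was at place 68 in old HSC ABC, 917 in old HSC and 909 in young HSC. Ilvbl was at 864 in old HSC ABC and 46 in old HSC.

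Between old HSC and young HSC, the pair Nr1h3, the gene of the sterol receptor LXR alpha, and Acp2, a lysosomal phosphatase gene, was at places 41.5 and 563. Cyb5a, the cytochrome b5 gene, was at 73 and 956, and Uqcrb at 15 and 175. In the other direction Rpl8 was at 546 in old HSC and 37 in young HSC, the pair Palb2, which links BRCA1 and BRCA2, and Dctn5 at 389 and 30, and Snu13, of the spliceosome and snoRNPs, at 115 and 9. Hjurp, the chaperone gene of centromeric histone H3, was at 67 in old HSC ABC and 3 in young HSC. Each of these is a single library against another, with no measure of the spread between animals or preparations.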

How the data were processed

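The authors deposited 1 list of summits per library in mm10, each summit with a name and a score that is read here as −log10 of a q-value, since every list starts just above 1.30, the −log10 of 0.05. The tools BWA, Picard, MACS2 and edgeR are those of the submitters' processing notes. Their roles, versions and settings, any control library and the read depth are not stated there, so no floor that needs depth is given. Scores were used to rank summits within a list. Gene records and promoter windows came from RefSeq tables of GRCm38.p6, matched by symbol or gene identifier. Of 896 entries in 26 gene lists 891 matched. Position relative to exons was not analysed here. Members, gene lists, motifs and comparisons were chosen with earlier results of these data known.

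Counts were made in Python 3.11.15 with numpy 2.4.6, pandas 2.3.3 and scipy 1.17.1, and the search for members was tested on simulated data. The rule for named genes took the 20 members with the best worst rank, up to 6 member genes per list by worst rank, the 5 with the widest ratio of places per pair and direction, those next to the rank limit and those with 3 genes; the text names part of these. Non-member genes, far-end members, head-to-head pairs, other list members and zinc finger genes named beside these were chosen after their values were seen. There were 13 alternatives for the rank limit, windows, sharing distance and the list that supplies the summits, and 1 added after seeing the data, which used members with 1 gene end within 1 kb.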

Additional observations from a re-analysis of the deposited data

How the results depend on the processing

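The share of members at the start end and the share of member windows with the ETS letters moved by less than their counting error in every alternative run (98.8% to 99.2% and 23.6% to 26.5%). The number of members follows the rank limit, with 750 for the top 2000 of each list, 346 for the top 1000 and 2133 for the top 5000; the other 10 alternatives gave 917 to 1785. The share of respiratory chain genes was 22.4%, 12.1% and 53.4% under those 3 limits, against 4.04%, 1.89% and 11.5% of all genes, and 22.4% against 4.83% when only members with 1 gene end within 1 kb counted, an alternative chosen after seeing the data. Members with 2 or more young HSC summits within 2 kb made up 10.9% (top 2000), 9.54% (top 1000), 16.4% (top 5000) and 16.4% (gene ends within 2 kb), and 18.2% when the old HSC ABC list supplied both the members and the summits counted, against 14.3% as reported. Places differing at least 2-fold between old HSC and young HSC were 28.0% as reported and 30.6% for the top 1000. The cause of these shifts was not tested beyond the construction of each limit. No paired analysis was possible because each group has 1 library. Depth is unknown, and peak names go against the labels, so every contrast between libraries holds only as labelled.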
